A study of Mus musculus with 8 samples.

Results

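Mural-marker cells were taken from 8 single-cell RNA libraries of sorted mouse tumour endothelium as the cells with a UMI (unique molecular identifier, 1 counted molecule) of at least 3 of 7 mural genes, Rgs5, Pdgfrb, Acta2, Notch3, Higd1b, Ndufa4l2 and Aspn, and no UMI of the epithelial gene Epcam. They numbered 362 of the 8204 deposited cells, or 4.41%. The study dropped Pecam1-negative contaminating cells after clustering, whereas the deposited files still hold cells without a Pecam1 UMI. The labels describe every library as adult tumour endothelial cells, and live CD45-, CD31+ cells had been sorted, so any mural cell was a minority that passed a gate for another cell type. The tumours were either spontaneous, arising in MMTV-PyMT females, whose oncogene is driven by the mouse mammary tumour virus promoter, or implanted, grown from cultured PyMT tumour cells placed orthotopically in the mammary fat pad of hosts without the oncogene. Each tumour received PBS or cGAMP, the cyclic dinucleotide that activates STING, by injection into the tumour. The study's methods place collection of the cells 3 h after the injection. The design gave 4 groups with 2 libraries each, PBS and cGAMP in spontaneous tumours and PBS and cGAMP in implanted tumours. The labels give the strain as c57bl/6 and the study's methods give FVB, and this could not be settled from the values. The members were chosen by measured values, so the 7 mural genes in them are described below and not tested.

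Mural cells are the pericytes of capillaries and small venules and the smooth muscle cells of larger vessels. They lie against the endothelial tube, share its basement membrane and are held there by endothelial PDGF-B acting on their PDGFRB receptor. Jagged and Notch3 signalling maintains their state, and their contractile proteins and ion channels set vessel calibre. STING senses cyclic dinucleotides and, through TBK1 and IRF3, turns on interferon genes, whose products then induce a broad set of interferon-stimulated genes in the same and in neighbouring cells.

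The libraries held 654 to 2025 cells and 7863535 to 16506086 UMIs. The median depth was 8804 to 13148 UMIs per cell in 7 libraries and 2014 in implanted cGAMP replicate 1, which stood apart. Across the series 7 cell barcodes occurred in more than 1 library, 1 of them a mural-marker cell. The mural-marker cells of a library together held 89791 to 1985686 UMIs, least in implanted PBS replicate 2 with its 7 cells. No label states whether the libraries of a group came from separate animals, although the methods name 2 mice per group, so p-values below measure the spread between these libraries.

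Mural-marker cells were unevenly spread over the libraries. In spontaneous tumours they were 14 of 1040 and 42 of 674 cells after PBS and 109 of 741 and 93 of 781 cells after cGAMP, or 1.35%, 6.23%, 14.7% and 11.9%. In implanted tumours they were 13 of 1099 and 7 of 1190 cells after PBS and 61 of 2025 and 23 of 654 cells after cGAMP, or 1.18%, 0.588%, 3.01% and 3.52%. Both cGAMP libraries lay above both PBS libraries in each model. The mean share was 3.79% ± 3.45 (SD, n = 2) after PBS and 13.3% ± 1.98 (SD, n = 2) after cGAMP in spontaneous tumours, and 0.886% ± 0.42 and 3.26% ± 0.357 in implanted tumours. With 2 libraries against 2 the smallest two-sided exact permutation p is 0.333 within a model. An exact permutation of treatment within both models together, two-sided, gave p = 0.0556, the smallest that its 36 arrangements allow. The rise lay mostly in cells that also held UMIs of at least 3 of the 7 endothelial genes listed below. In the spontaneous libraries such cells numbered 13 and 19 after PBS and 80 and 65 after cGAMP. Cells with fewer endothelial genes numbered 1 and 23 after PBS and 29 and 28 after cGAMP. For the share of the latter the same permutation over both models gave p = 0.389. A share of sorted cells cannot tell more mural cells from fewer endothelial cells or from a change in what passed the gate.

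**Figure D1:**
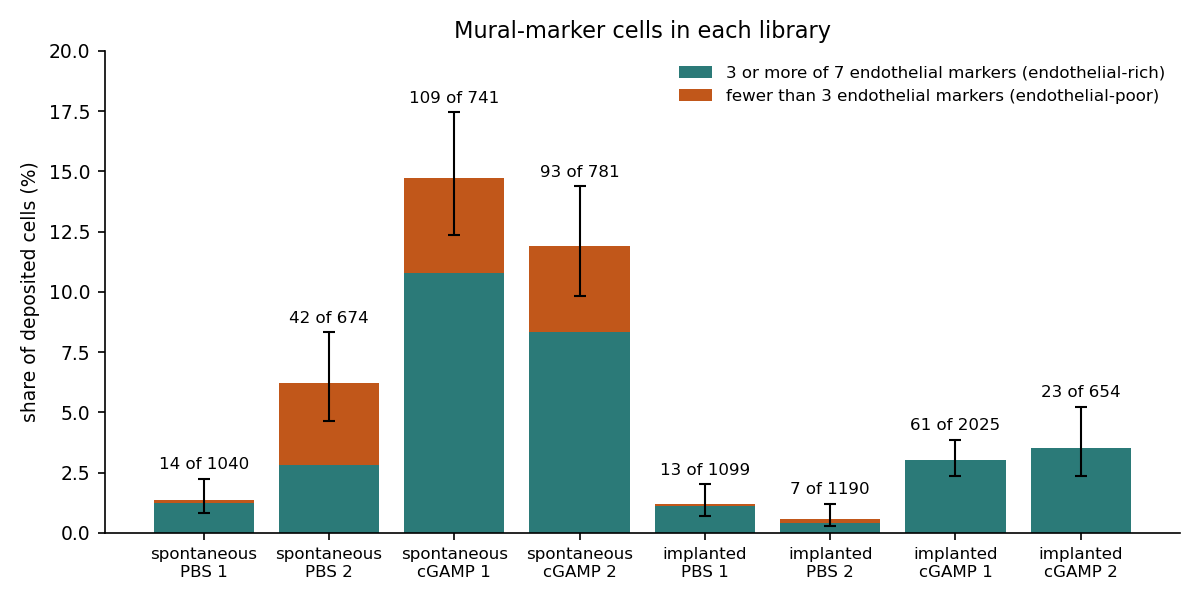
Share of deposited cells (%) that were mural-marker cells in each of the 8 libraries, with the 95% Wilson interval of the whole share, which covers counting error only, and with the bar divided by the number of endothelial markers in the cells. The spontaneous cGAMP bars reach 14.7% and 11.9%, and the endothelial-poor part is 0 in both implanted cGAMP libraries.

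Most mural-marker cells carried endothelial RNA. Of the 362, 278 (76.8%) had UMIs of at least 3 of 7 endothelial genes, Pecam1, Cdh5, Kdr, Cldn5, Egfl7, Emcn and Tie1, and are called endothelial-rich here. The other 84 (23.2%) had fewer than 3 and are called endothelial-poor. Of all 362 cells 47 had none of the endothelial genes, 28 had 1, 9 had 2, 7 had 3, 21 had 4, 36 had 5 and 214 had 6 or 7. In spontaneous tumours the cells gathered toward the 2 ends of that scale. In implanted tumours 15, 21, 25 and 37 of the 104 cells had 4, 5, 6 and 7 of the genes. Of the 84 endothelial-poor cells 81 came from spontaneous tumours, 1, 23, 29 and 28 from PBS replicates 1 and 2 and cGAMP replicates 1 and 2. In implanted tumours 1 and 2 came from the PBS replicates and 0 of 2025 and 0 of 654 cells from the cGAMP replicates, which allows shares of up to 0.148% and 0.459%.

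The 2 kinds differed in the level of both gene sets. Levels are in CPM, the UMIs of a gene per 1000000 UMIs of the cell, averaged over the cells of a library. In the endothelial-poor cells of spontaneous PBS replicate 2 and cGAMP replicates 1 and 2 the 7 mural genes summed to 19511, 14932 and 17957 CPM and the 7 endothelial genes to 75.8, 251 and 67.2 CPM. In the endothelial-rich cells of the same libraries the mural sum was 9439, 4907 and 4677 CPM and the endothelial sum 3299, 4431 and 5334 CPM. Reference endothelial cells, defined as the 5804 other cells with at least 3 endothelial genes and no Epcam or Ptprc UMI, had 47.0, 56.5 and 55.6 CPM of mural RNA and 6044, 6572 and 6859 CPM of endothelial RNA in these libraries. Over all 8 libraries the endothelial-rich cells held 54.6% to 119% of the endothelial level of the reference cells. In the 6 libraries with endothelial-poor cells they held 12.6% to 48.4% of the mural level of those cells. That share was 48.4%, 32.9% and 26.0% in spontaneous PBS replicate 2 and cGAMP replicates 1 and 2. Spontaneous PBS replicate 1, the source of the 12.6%, and implanted PBS replicates 1 and 2 had only 1, 1 and 2 endothelial-poor cells. The median endothelial-rich cell also held 1.25 to 3.88 times as many UMIs as the median reference endothelial cell of its library, while the medians over all libraries were 17866 UMIs for endothelial-rich and 8435 for endothelial-poor cells. The 3.88 is from implanted cGAMP replicate 1, where the reference median was 2425 UMIs. Endothelial-rich cells needed UMIs of at least 3 mural genes and reference cells did not, so the rule itself favours deep cells. With every cell thinned to 2000 UMIs, 128 cells met the rule and held at least 3 endothelial genes, beside 278 at full depth. Endothelial RNA at 54.6% or more of the reference level, reduced mural levels and high depth occurred together in the endothelial-rich cells, and the part of doublets in them was not tested.

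**Figure D2:**
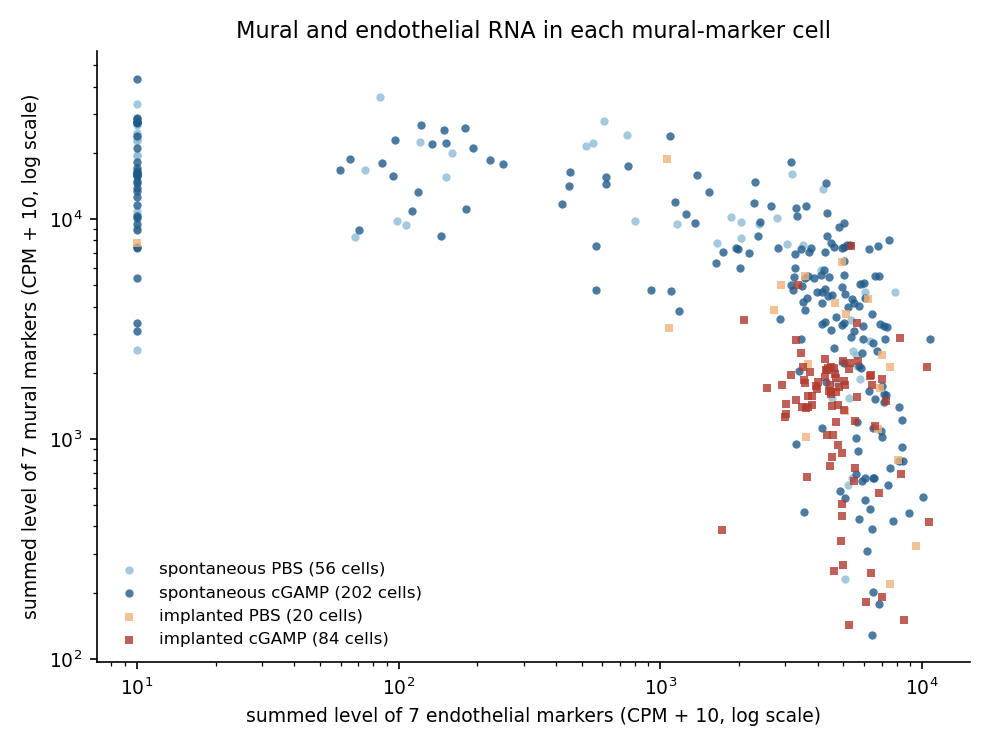
Summed level of the 7 mural genes (CPM + 10, log scale) against that of the 7 endothelial genes (CPM + 10, log scale) in each of the 362 mural-marker cells, 1 point per cell, coloured by group. The 47 cells with none of the endothelial genes form the column at the left edge, and nearly all implanted cells lie at the right, among cells with full endothelial RNA.

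Depth mattered to how many cells met the rule. When every cell was thinned to 2000 UMIs, 237 of 6432 cells met it, of which 109 were endothelial-poor at that depth. They were 0.565%, 8.11%, 12.6% and 10.6% in the spontaneous libraries and 0.536%, 0.38%, 1.18% and 0.686% in the implanted libraries. Thinned, the cGAMP libraries still lay above the PBS libraries in each model, and the implanted difference fell to 0.476 percentage points from 2.38. The thinned implanted shares rest on few cells, 5 and 4 after PBS and 12 and 4 after cGAMP, so their order is uncertain. The thinning left out 1009 cells of implanted cGAMP replicate 1 and 56 to 166 cells of each other library. Cells just inside the rule, with 3 mural genes, numbered 68, had a median mural level of 1312 CPM and were endothelial-rich in 91.2% of cases. Cells just outside, with 2 mural genes, numbered 171, had a median of 525 CPM and held at least 3 endothelial genes in 94.2% of cases. At the far end, 134 cells had all 7 mural genes and a median of 9118 CPM, and 53 of them were endothelial-poor. A further 90 cells met the mural part of the rule and were left out for an Epcam UMI. Of those, 74 had a single Epcam UMI and 17 had fewer than 3 endothelial genes.

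The 7 rule genes themselves were at different levels in these cells. In the endothelial-poor cells of spontaneous PBS replicate 2 and cGAMP replicates 1 and 2, Rgs5 was highest, at 11263, 7499 and 9485 CPM, and 82 of the 84 endothelial-poor cells had a UMI of it. Acta2 followed at 3408, 3139 and 3279.8 CPM. Ndufa4l2, a hypoxia-induced protein related to a respiratory chain subunit, was at 1018, 1075 and 1141 CPM and Higd1b, a mitochondrial protein of pericytes, at 889, 1014 and 1284 CPM. Aspn, the matrix proteoglycan asporin, was at 995, 700.0 and 969.7 CPM, and the receptors Pdgfrb and Notch3 were at 1163, 922 and 1171 CPM and 775, 583 and 626 CPM. In reference endothelial cells 7.03% had a UMI of Rgs5 and 7.36% of Acta2, while 0.293% had Aspn, 0.689% Pdgfrb, 0.827% Notch3, 0.913% Higd1b and 1.38% Ndufa4l2, at a median of 2425 to 12506 UMIs per cell by library. Rgs5 and Acta2 were thus the rule genes most often found outside mural-marker cells. The values count 3′ ends, so they need no scaling by transcript length, though capture differs between genes.

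Checked against markers that the rule did not use, the endothelial-poor cells of spontaneous tumours were mural. The pericyte list of 25 genes summed to 8648, 8187 and 9141 CPM in spontaneous PBS replicate 2 and cGAMP replicates 1 and 2, against 955, 731 and 781 CPM in the reference endothelial cells. Kcnj8, the pore of the vascular KATP channel, stood at 475, 688 and 665 CPM against 11.1, 10.6 and 5.17 CPM. Vtn, the matrix glycoprotein vitronectin that marks pericytes, stood at 307, 592 and 681 CPM against 0.149, 0.422 and 2.78 CPM. Abcc9, the regulatory partner of Kcnj8, was at 889.9, 461 and 933 CPM, and reference endothelial cells also held 74.1, 52.3 and 52.0 CPM of it. Cspg4, the NG2 proteoglycan of pericytes, was at 142, 220.2 and 179 CPM and at 0, 0.285 and 0.321 CPM in the reference cells. These are ratios within the cells that were sorted into groups by related genes and carry no test.

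The same cells also held contractile genes. The contractile smooth muscle list of 22 genes summed to 12746, 11978 and 11836 CPM against 1367, 1053 and 1003 CPM in reference endothelial cells. Tagln, the actin-binding protein transgelin, stood at 2173, 1503 and 1797 CPM, Myl9, the regulatory myosin light chain, at 965, 659 and 1128 CPM, and Myh11, the smooth muscle myosin heavy chain, at 432, 439.8 and 267 CPM. The late contractile marker Cnn1, calponin, was nearly absent, with UMIs in 3 of the 84 endothelial-poor cells. Cell by cell the pericyte and contractile genes overlapped. Of the 84 cells, 49 had Myh11 together with Kcnj8 or Vtn, 18 had Kcnj8 or Vtn without Myh11, 7 had Myh11 alone and 10 had none of the 3. The cells were therefore not divided into pericytes and smooth muscle cells here.

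Genes of fibrous matrix were present, and the fibroblast list was above the reference, although several of the genes used to define fibroblasts were near 0. In the same 3 libraries Col1a1 was at 1356, 774 and 543 CPM, Col3a1 at 1613, 1531 and 1825 CPM and Postn, the matricellular protein periostin, at 707, 1455 and 1535 CPM, against 2.12, 2.79 and 1.79, 1.42, 3.26 and 9.41 and 8.32, 9.52 and 3.85 CPM in turn in the reference endothelial cells. Pdgfra was detected in 1 of the 84 endothelial-poor cells, Lum in 1, Clec3b in 1, Pi16 in 1, Dcn in 3 and Dpt in 6. The fibroblast list of 14 genes summed to 2026, 2090.1 and 2344 CPM, against 57.1, 51.7 and 43.2 CPM in the reference endothelial cells. Postn and Gsn, the actin-severing protein gelsolin at 938, 503 and 719.6 CPM, carried most of it, and Fap, a fibroblast protease, was at 53.3, 18.0 and 21.9 CPM. Fbln1 was at 0 CPM in all 3. The immune list of 12 genes summed to 48.2, 79.0 and 119.8 CPM and the myoepithelial list of 7 genes to 12.5, 25.5 and 13.8 CPM, with Oxtr at 0 of 84 cells and Krt5, Krt14 and Trp63 in 1 cell each. The epithelial list of 12 genes summed to 642, 1555 and 538 CPM, beside 653, 698 and 708 CPM in the reference endothelial cells. Much of the sum came from the milk protein gene Csn3 and from Wfdc18, and it was above the reference value in cGAMP replicate 1. Cryab, a small heat shock protein that glia and muscle also express, stood at 399.9, 407 and 386 CPM against 2.19, 2.81 and 4.33 CPM, while the glial factor Sox10 was detected in 5 of the 84 cells. Pecam1 was detected in 7 of the 84 cells (8.33%) and Cdh5 in 2 (2.38%), against 93.4% and 92.2% of the reference cells. At 2000 UMIs per cell these were 5.63% and 0 of 71 cells, the latter allowing up to 4.23% of cells with a UMI at that depth, which does not limit how many express the gene, against 84.7% and 84.3%.

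**Figure D3:**
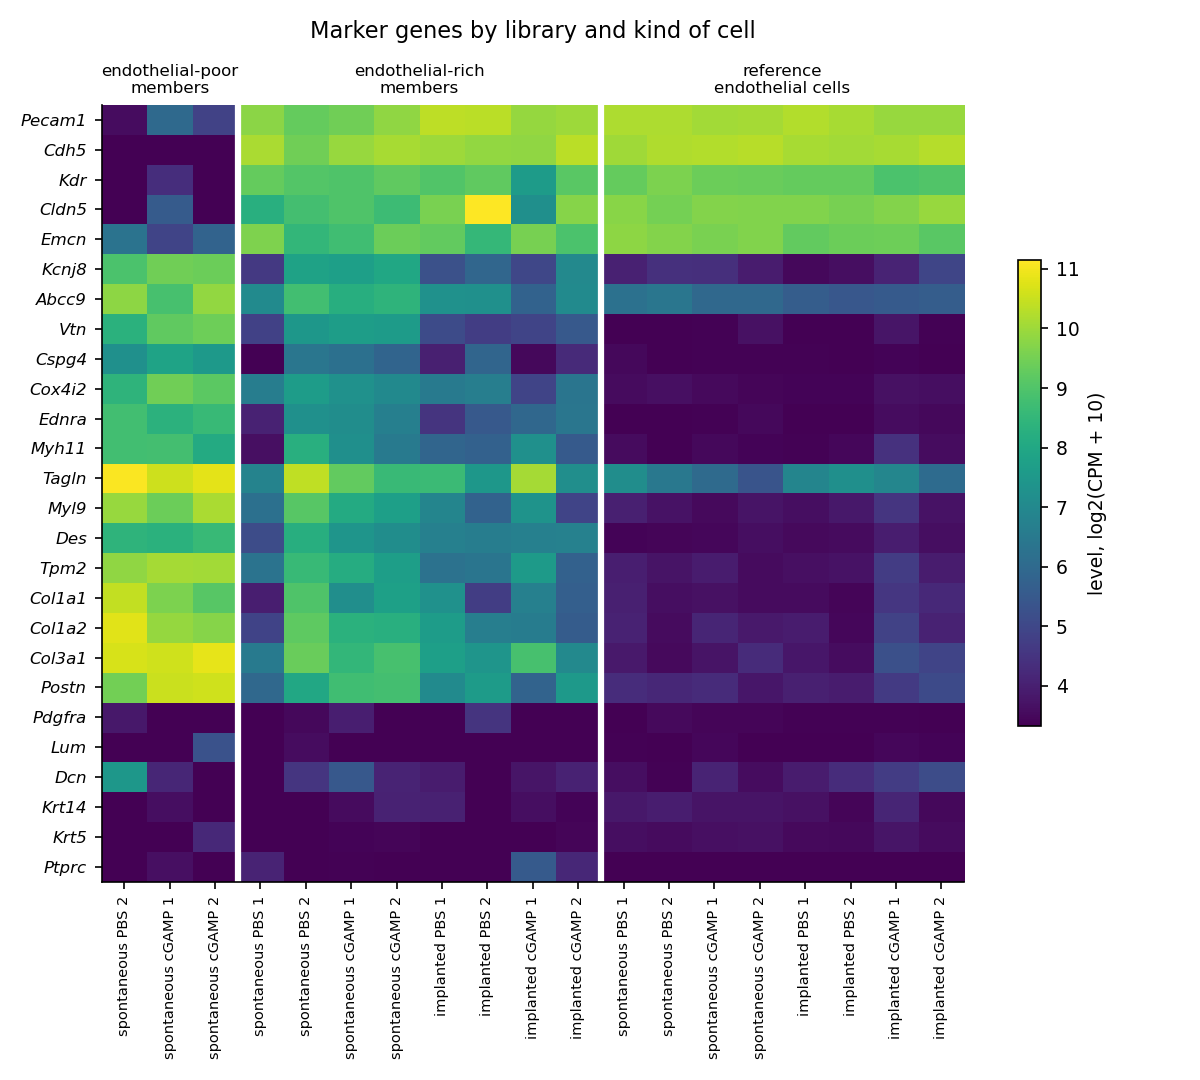
Level of 26 marker genes, log2(CPM + 10), in the endothelial-poor cells of the 3 spontaneous libraries with more than 1 such cell, in the endothelial-rich cells of 8 libraries and in the reference endothelial cells of 8 libraries. Pericyte, contractile and collagen genes are high on the left and low on the right, endothelial genes the reverse, and the endothelial-rich cells hold both.

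The single endothelial-poor cell of spontaneous PBS replicate 1 was a cycling cell. The 16 proliferation genes summed to 13727 and 597 CPM in that replicate and replicate 2 in turn, with Mki67, the marker of cycling cells, at 2188 and 16.8 CPM. Every value for endothelial-poor cells of that replicate rests on this 1 cell.

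In implanted tumours the label of mural cell went beyond the data. Of their 104 mural-marker cells 101 were endothelial-rich, and in the cGAMP libraries all 61 and all 23 were. The mural sum of the endothelial-rich cells was 2988 and 2032 CPM after PBS and 1738 and 1179 CPM after cGAMP, against 2509, 9439, 4907 and 4677 CPM in the 4 spontaneous libraries. These sums, and the levels of Rgs5 and Acta2 below, are of rule genes and so depend on which cells met the rule. In implanted tumours they rest on 12 and 5 endothelial-rich cells after PBS and 61 and 23 after cGAMP. They describe the cells, and no effect of treatment is read from them. Rgs5, a regulator of G-protein signalling and the leading pericyte marker, stood at 2377 and 1313 CPM in the implanted PBS and 461 and 522 CPM in the implanted cGAMP replicates, whereas spontaneous PBS replicates 1 and 2 and cGAMP replicates 1 and 2 held 1932, 5898, 2437 and 2817 CPM. In implanted cGAMP replicate 1 Acta2, smooth muscle actin, at 945 CPM exceeded Rgs5, and Tagln reached 1082 CPM while Kcnj8 was at 21.9 CPM and Cspg4 at 1.18 CPM. Of the 20 mural-marker cells with a UMI of the leukocyte gene Ptprc, 14 and 3 were in implanted cGAMP replicates 1 and 2. The immune list summed to 489, 424, 1952 and 1103 CPM in the implanted libraries and to 944, 665, 1471 and 1188 CPM in the reference endothelial cells of the same libraries. Srgn and Cd74, which endothelial cells also express, made up most of it, while Lyz2, a myeloid lysozyme, was at 178 and 7.77 CPM in the mural-marker cells of the cGAMP replicates and 68.6 and 8.76 CPM in the endothelial cells. The part of this RNA in the results of implanted tumours was not tested.

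Outside the 7 rule genes, 15 genes with at least 100 CPM on average had the largest median ratio of mural-marker to reference endothelial cells over the 8 libraries. They fell into contractile genes (Myl9 and Tpm2), fibrous matrix genes (Col1a1, Col1a2, Col3a1, Col6a3 and Postn), Cryab, a small heat shock protein, Cox4i2, a hypoxia-linked cytochrome oxidase subunit of pericytes, the protease inhibitor Serpine2, the oxygen-binding globin Cygb, the mesenchymal transcription factor Prrx1, the chemerin gene Rarres2, Ifitm1 and Plac8. The median log2 ratio was 4.63 for Myl9, 4.38 for Col3a1, 4.001 for Postn and 3.81 for Ifitm1. The ratio was above 0 in all 8 libraries for 14 of the 15, and for Plac8, which had no UMI in spontaneous PBS replicate 1, it ran from -0.04 to 4.30. Because the cells were chosen by mural genes, these ratios describe the cells and were not tested.

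Ligands and receptors of the vessel wall were split between the kinds of cell. Pdgfb, the ligand that recruits pericytes, stood at 164, 134 and 135 CPM in reference endothelial cells and 7.45, 17.0 and 5.33 CPM in the endothelial-poor cells of spontaneous PBS replicate 2 and cGAMP replicates 1 and 2. Its receptor Pdgfrb, a rule gene, stood at 0.621, 1.75 and 0.263 CPM and 1163, 922 and 1171 CPM. Tek, the angiopoietin receptor, was at 173, 151 and 153 CPM in the endothelial and 0, 5.92 and 0 CPM in the endothelial-poor cells. Its ligand Angpt1, made by mural cells, was near 0 in the endothelial cells, at 0.244, 0.0690 and 0.112 CPM. In the endothelial-poor cells Angpt1 was higher, though still modest, at 25.3, 61.7 and 11.8 CPM. The endothelial Notch ligand Dll4 was at 212, 179 and 183 CPM against 0, 4.76 and 0 CPM, and Jag1, a ligand of Notch3, at 55.9, 29.0 and 42.4 CPM against 168, 210.2 and 115 CPM. Ednra, the endothelin receptor of contractile cells, was at 432, 319 and 379.7 CPM in the endothelial-poor cells and at 0, 0.408 and 1.26 CPM in endothelial cells, whereas Ednrb was present in both, at 138, 274 and 294 CPM and 383, 249 and 285 CPM. Basement membrane collagen was shared, with Col4a1 at 2849.9, 3063 and 3008 CPM and 3509, 2834 and 2848 CPM. The adipose and capillary fatty acid carrier Fabp4 was high in the endothelial-poor cells too, at 4627, 3501 and 2850.0 CPM beside 6938, 5638 and 5663 CPM, in contrast to the 7 endothelial marker genes.

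The next question was what cGAMP did to the RNA of these cells. The level of each gene in the mural-marker cells of a library, as log2(CPM + 10), was compared between treatments with limma in 1 fit over the 8 libraries, for the 7660 genes that reached 20 CPM in 2 or more libraries. A gene is called where the Benjamini-Hochberg adjusted p was under 0.05, and fold changes understate low genes because of the added 10 CPM. In simulated data 4-fold changes were recovered for 35 of 100 genes and 2-fold changes for 1 of 100 (spontaneous comparison, 7688 genes), so a gene that was not called may still have changed.

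In spontaneous tumours 55 genes rose after cGAMP and 0 fell, 0.718% of the genes tested (286 had an unadjusted p under 0.05). The 8 largest rises, among called genes of at least 50 CPM in a group whose libraries did not overlap, were all of interferon-induced genes. Ccl5, a chemokine that draws T cells, had no UMI in the 843455 UMIs of the mural-marker cells of both PBS libraries and stood at 1706 and 839 CPM after cGAMP (adjusted p = 0.000198). Summed over cells that was at least 499.6-fold higher, taking 3 counts over the PBS libraries as the floor. Irf7, the transcription factor that amplifies interferon production, went from 22.3 and 56.6 CPM to 1532 and 1355 CPM, a log2 change of 4.97 ± 0.46 (SE), adjusted p = 0.00265. Isg15, a ubiquitin-like modifier, went from 31.1 and 103 CPM to 1684 and 1472 CPM, a log2 change of 4.54 ± 0.54 (SE), adjusted p = 0.00577. Both cGAMP libraries lay above the 2 PBS libraries in all of these, which the choice of named genes required.

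The other 5 genes with the largest rises followed the same course. Ifit1, which binds foreign RNA caps, rose by 4.77, its relative Ifit3b by 4.34, Ifi44 by 4.63, and the CXCR3 chemokines Cxcl9 and Cxcl10 by 4.76 and 4.32 on the log2 scale. Cxcl9 went from 15.3 and 68.3 CPM to 1333 and 1072 CPM. Ifit3b shares most of its sequence with Ifit3, so the division of reads between them is uncertain. Iigp1, an interferon-inducible GTPase, rose from 56.7 and 87.4 CPM to 926 and 883 CPM, adjusted p = 0.00306. The count of 55 fell to 1 gene, Ccl5, without spontaneous cGAMP replicate 1 and to 8 genes without cGAMP replicate 2. It was 73 without PBS replicate 2 and 39 without PBS replicate 1.

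The upstream 250 bases of 3 of the genes called in both models are shown because these genes rose together. They are from RefSeq, build GRCm38.p6, written 5′ to 3′ on the strand of the gene and ending at the base before its start, with matches to GAAANNGAAA or its reverse complement TTTCNNTTTC in capitals. That motif resembles the element bound by interferon-activated factors. Isg15 lies at chr4:156200819-156201068, minus strand, with 3 overlapping matches, Ifit1 at chr19:34640639-34640888, plus strand, with 2, and Ifit3 at chr19:34583279-34583528, plus strand, with 2.
Isg15: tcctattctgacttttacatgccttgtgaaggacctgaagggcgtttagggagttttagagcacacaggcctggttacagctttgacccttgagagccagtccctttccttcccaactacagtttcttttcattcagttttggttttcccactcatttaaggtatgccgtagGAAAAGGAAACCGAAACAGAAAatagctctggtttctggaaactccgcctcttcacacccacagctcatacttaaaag
Ifit1: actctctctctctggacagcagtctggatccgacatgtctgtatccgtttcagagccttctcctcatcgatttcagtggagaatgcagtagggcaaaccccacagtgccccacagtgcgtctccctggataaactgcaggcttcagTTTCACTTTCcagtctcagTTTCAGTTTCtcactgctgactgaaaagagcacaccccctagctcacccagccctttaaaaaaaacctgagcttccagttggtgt
Ifit3: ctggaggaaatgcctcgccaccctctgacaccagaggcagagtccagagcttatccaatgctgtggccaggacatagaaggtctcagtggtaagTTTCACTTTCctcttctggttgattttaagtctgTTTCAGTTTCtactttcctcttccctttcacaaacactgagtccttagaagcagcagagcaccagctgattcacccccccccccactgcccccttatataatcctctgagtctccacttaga
The last match ended 57 bases before the start of Isg15, 76 before that of Ifit1 and 113 before that of Ifit3. Of the 40 genes called higher in both models, 34 had a promoter in the table by symbol and 17 of those held a match, against 2.98% of 32851 promoters and 3.50% of 6030 tested genes. Irf7, Cxcl9 and Apod had none in this window. A match is a description of the letters only.

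In implanted tumours 79 genes were called (1.03% of those tested), of which 68 rose (0.888%) and 11 fell (0.144%), with 1021 at an unadjusted p under 0.05. Ccl5 had no UMI in the 339718 UMIs of the PBS libraries and stood at 745 and 572 CPM after cGAMP, at least 51.2-fold higher, adjusted p = 0.000632. Ifit1 went from 3.74 and 0 CPM to 617 and 659.7 CPM, a log2 change of 5.79 ± 0.57 (SE), adjusted p = 0.0076. Cxcl9 went from 146 and 38.6 CPM to 3069 and 2808 CPM, a log2 change of 5.08 ± 0.61 (SE), adjusted p = 0.0111. Irf7, Slfn2, Ifit3, Ifit2 and Phf11b completed the 8 largest, chosen in the same way, with log2 changes of 4.54, 4.42, 4.31, 4.28 and 4.11. Of the genes called, 40 were called in both models, all in the same direction, 72.7% of the spontaneous and 50.6% of the implanted calls.

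The 11 falls in implanted tumours included genes of capillary endothelium. Rbp7, a retinoid carrier of microvessels, went from 1253 and 1613 CPM to 63.5 and 157 CPM, a log2 change of -3.69 ± 0.59 (SE), adjusted p = 0.0259. Cd36, a fatty acid receptor, went from 937 and 1072 CPM to 202 and 301 CPM, a log2 change of -1.98 ± 0.28 (SE), adjusted p = 0.0179. Fabp4, singled out after its values were seen, went from 10808 and 7749.6 CPM to 1879.6 and 3937 CPM, adjusted p = 0.0461, a call lost in 5 of 11 other settings. In reference endothelial cells of the same libraries Rbp7 stood at 602 and 819 CPM and 168 and 327 CPM, and Fabp4 at 5089.5 and 5246 CPM and 2687 and 4167 CPM. Kcnq1ot1, Cenpa, Crispld1, Ifi27, H2afv and Pltp also fell, by 2.11 to 3.14 on the log2 scale for all but Pltp (2.10), and the other 2 falls were the mitochondrial transcripts mt-Cytb and mt-Nd4. Of the 14 further endothelial genes listed 1, Fabp4, was called. All these falls were in cells of which 101 of 104 were endothelial-rich, so a mural cell and an endothelial cell as their source cannot be told apart.

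Leaving out libraries moved the implanted count widely. It was 425 without implanted PBS replicate 1, 5 without PBS replicate 2, 4 without cGAMP replicate 1, the shallow library, and 1 without cGAMP replicate 2. It was 120 and 125 without spontaneous PBS replicate 1 or 2 and 14 without either spontaneous cGAMP replicate, which share the estimate of spread.

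By gene group, the interferon and antigen presentation lists held 47 of the 55 genes called in spontaneous tumours and 41 of the 79 called in implanted tumours. Of the 8 interferon genes that the study itself picked on these samples, 7 rose in each model and Oasl2 was not called, at 3.34 and 2.59 on the log2 scale. That list is not independent evidence of its direction. The other lists were chosen with earlier results of these data known, so their counts describe the response and add no independent support. Of 52 other interferon-induced genes, 28 rose in spontaneous and 27 in implanted tumours and 0 fell, with median log2 changes of 2.55 and 2.06. The median over all 7660 genes was 0.01 and 0.04. With genes that had no UMI after PBS set to their bound, the medians of that list were 2.59 and 2.06. Of 21 antigen presentation genes tested, 12 rose in spontaneous tumours and 7 in implanted tumours, among them H2-K1 (2.13 and 1.65), B2m (2.09 and 1.59) and Tapbp (2.05 and 2.19), which form and load MHC class I. Reads of class I genes can be shared between close copies. The class II genes H2-Aa, H2-Ab1, Cd74 and H2-DMb1 were not called in either model.

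Most other groups had no called gene. Of 10 genes of STING and nucleic acid sensing tested, Ddx58 and Ifih1 rose in spontaneous tumours and Ifih1 in implanted tumours, both of them RNA sensors and interferon-induced. Tmem173, which encodes STING, was not called. It stood at 2.41, 8.86 and 28.1 CPM in the endothelial-poor cells of spontaneous PBS replicate 2 and cGAMP replicates 1 and 2, with UMIs in 1, 3 and 7 cells, against 72.7, 97.2 and 78.9 CPM in reference endothelial cells. Of 11 tested chemokine, cytokine and adhesion genes outside the interferon lists, 0 were called in spontaneous tumours and Ccl11 and Cd274 rose in implanted tumours. None of the tested genes of the pericyte (23), contractile smooth muscle (16), interstitial matrix (20), basement membrane (14), TGF-beta and BMP (17), Notch (14), vasoactive (15), TNF and NF-kB (17), cell death (20), immediate early and heat shock (22) or hypoxia and glycolysis (17) lists was called in either model. The median log2 change of the pericyte list was 0.57 in spontaneous and -0.27 in implanted tumours, and that of the contractile list 0.73 and 0.09. Of the 14 proliferation genes 0 were called, with a median log2 change of -0.94 in spontaneous and -2.87 in implanted tumours. The PBS side of these medians is 14 and 42 spontaneous and 13 and 7 implanted cells. The 14 cells of spontaneous PBS replicate 1 include the single cycling cell described above, so few cells can set these medians.

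The endothelial-poor cells allowed a look at the response where the 7 endothelial marker genes were low. Other endothelial RNA was not absent from them: the list of 14 further endothelial genes summed to 5067, 4120.2 and 3319.6 CPM in spontaneous PBS replicate 2 and cGAMP replicates 1 and 2, most of it Fabp4, against 13033 to 15413 CPM in the reference cells of the spontaneous libraries, and its part in the response was not tested. The comparison was possible only in spontaneous tumours, with 24 cells after PBS and 57 after cGAMP. In a fit of those 4 libraries 12 of 6450 genes rose (0.186%, 270 at an unadjusted p under 0.05) and 0 fell: Apod, Bst2, Cxcl9, Gbp2, Ifi203, Ifit1, Ifit3, Ifit3b, Irf7, Isg15, Ly6a and Ly6e. Isg15 stood at 0 and 108 CPM in the PBS replicates and 1847 and 1423 CPM in the cGAMP replicates, with UMIs in 25 and 28 of 29 and 28 cells after cGAMP. Its log2 change was 5.57 ± 0.85 (SE), adjusted p = 0.0253. Irf7 stood at 0 and 67.9 CPM and 1375 and 1233 CPM, in 26 and 26 of 29 and 28 cells after cGAMP, a log2 change of 5.55 ± 0.76 (SE), adjusted p = 0.0134. These levels were close to those of reference endothelial cells, 1368 and 1444 CPM of Isg15 and 1413 and 1373 CPM of Irf7 after cGAMP. Bst2, the membrane tether tetherin, changed by 3.45 ± 0.43 (SE), adjusted p = 0.00676. The value of PBS replicate 1 in this fit is that of its single, cycling cell. In the stricter set of cells with no Pecam1 or Cdh5 UMI that replicate held no cell, and 125 of 5908 genes were called, 107 higher and 18 lower, with the spread taken from both cGAMP libraries alone and PBS replicate 2 assumed to vary like them. Of the 17 contractile genes tested in the endothelial-poor cells 0 were called, with a median log2 change of 1.12 beside 0.11 over all genes tested, and against PBS replicate 2 alone the summed level of that list did not rise.

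**Figure D4:**
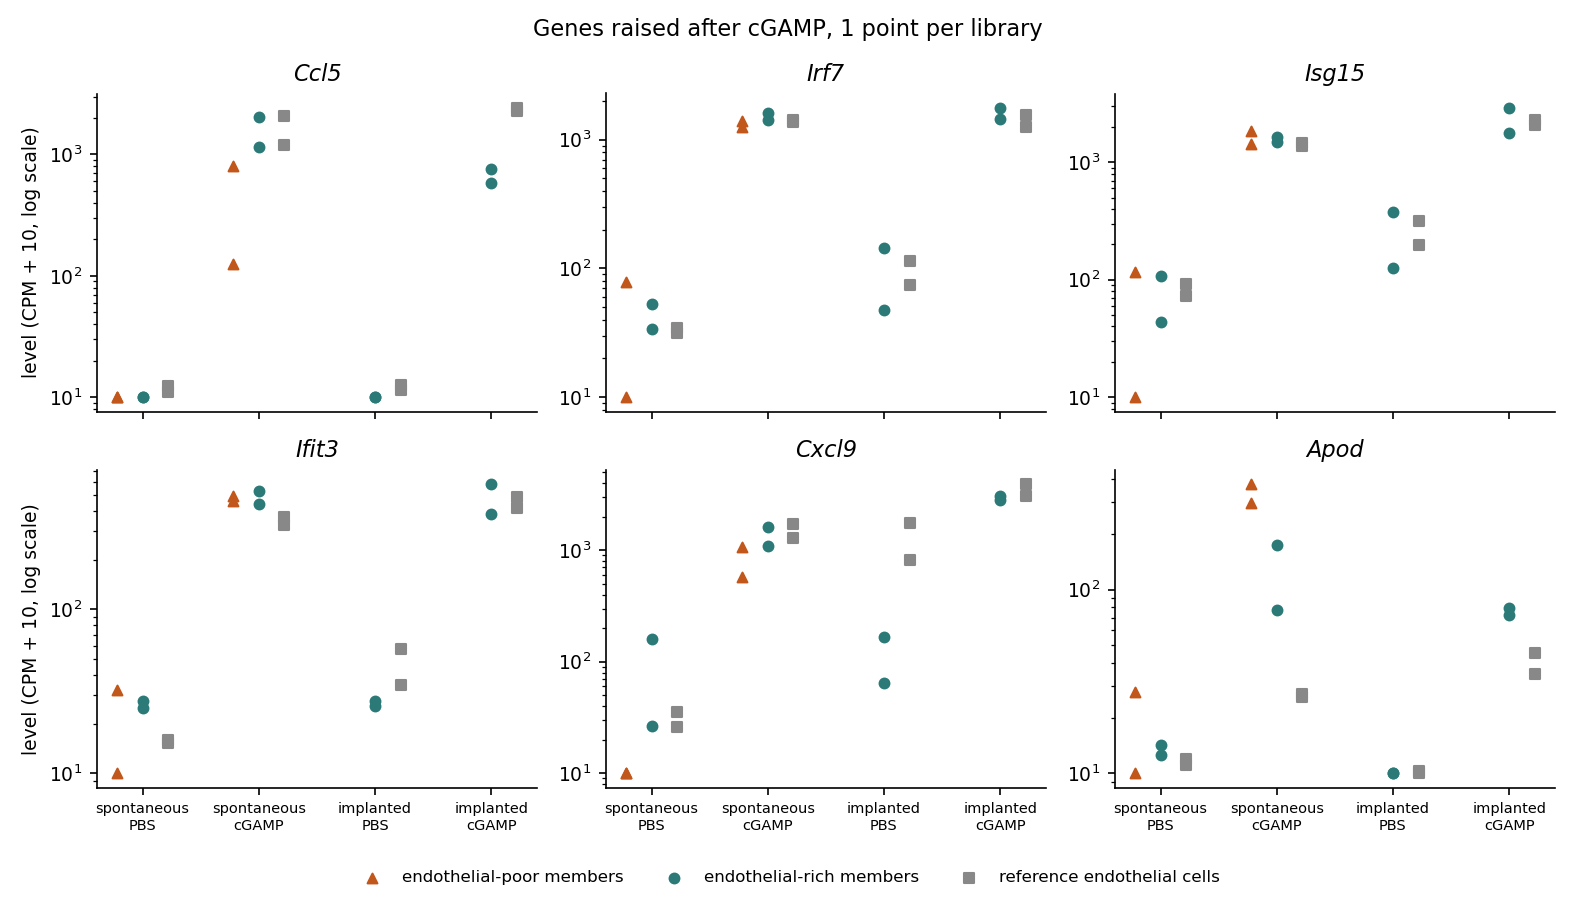
Level of 6 genes (CPM + 10, log scale), 1 point per library, in endothelial-poor cells (spontaneous tumours only), endothelial-rich cells and reference endothelial cells of each group. Irf7, Isg15 and Ifit3 lie close together in the 3 kinds of cell after cGAMP, Ccl5 is lower in the endothelial-poor cells and Apod is higher in them.

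Ccl5 and Apod, both singled out here after their values were seen, stood at different levels in the kinds of cell. In the spontaneous cGAMP replicates Ccl5 stood at 788 and 115 CPM in endothelial-poor, 2039 and 1151 CPM in endothelial-rich and 2050.1 and 1182 CPM in reference endothelial cells, and 14 and 14 of the 29 and 28 endothelial-poor cells had a UMI of it. In the endothelial-poor cells alone its change was 4.98 ± 0.95 (SE), adjusted p = 0.0686. Apod, which encodes the lipid carrier apolipoprotein D, ran the other way. It stood at 0 and 17.8 CPM after PBS and 287 and 365 CPM after cGAMP in the endothelial-poor cells, and at 1.15 and 2.0 CPM and 17.1 and 16.1 CPM in the reference endothelial cells. Over all mural-marker cells it rose by 3.44 ± 0.37 (SE), adjusted p = 0.00441, in spontaneous tumours. In implanted tumours it rose from 0 UMIs in both PBS libraries to 68.9 and 63.0 CPM, at least 7.91-fold, adjusted p = 0.013.

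Ms4a4d and Ccl11 were also singled out after their values were seen. Ms4a4d, a tetraspan membrane protein, rose in implanted mural-marker cells from 0 UMIs to 59.6 and 108 CPM, at least 9.85-fold, adjusted p = 0.0338, a call lost in 5 of 11 other settings. In spontaneous tumours it was not called (0 and 16.5 CPM and 114 and 65.2 CPM, adjusted p = 0.109), and reference endothelial cells there held 0 and 0 CPM and 8.77 and 4.16 CPM, and in implanted tumours 2.24 and 0.844 CPM and 27.3 and 45.6 CPM. Ccl11, the eosinophil chemokine eotaxin, was called in implanted tumours, from 6.54 and 0 CPM to 180.1 and 70.6 CPM, adjusted p = 0.0454, against 1.23 and 1.17 CPM and 15.5 and 4.11 CPM in the reference endothelial cells. That call was lost in 7 of 11 other settings, and without implanted PBS replicate 2 or either implanted cGAMP replicate. In the endothelial-poor cells of spontaneous tumours it was present under both treatments, 249 and 117 CPM and 301 and 238 CPM, against 0.100, 0.157, 0.426 and 2.08 CPM in the reference endothelial cells of those libraries.

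Whether mural-marker cells responded differently from endothelial cells was tested on the difference of log2 levels between the 2 kinds of cell within each library. Of the mural-marker cells 278 of 362, and 101 of 104 in implanted tumours, were endothelial-rich. The test thus mostly set cells with endothelial RNA against endothelial cells, and cannot say how mural RNA alone responded. In the endothelial-poor cells of spontaneous tumours the same test called 0 of 6450 genes (181 at an unadjusted p under 0.05). Over all mural-marker cells no gene was called in spontaneous (113 at an unadjusted p under 0.05) or implanted tumours (660). In spontaneous tumours the response minus that of endothelial cells was -0.44 for Irf7 (95% interval -1.74 to 0.85), 0.42 for Isg15 (-0.94 to 1.78) and -0.15 for Ccl5 (-1.12 to 0.81). Apod had 2.24 (1.11 to 3.38, unadjusted p = 0.00143 by limma, adjusted p = 0.999). In implanted tumours Cxcl9 had 3.57 (1.76 to 5.37, adjusted p = 0.404) and Ccl5 had -1.56 (-2.52 to -0.59, adjusted p = 0.46). For Cxcl9 the level after PBS was 146 and 38.6 CPM in the mural-marker cells and 1753 and 813 CPM in the endothelial cells of the implanted libraries. The 20 implanted PBS cells behind this value, 13 and 7 in the replicates, are few, and without implanted PBS replicate 1 the implanted test called 74 genes.

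**Figure D5:**
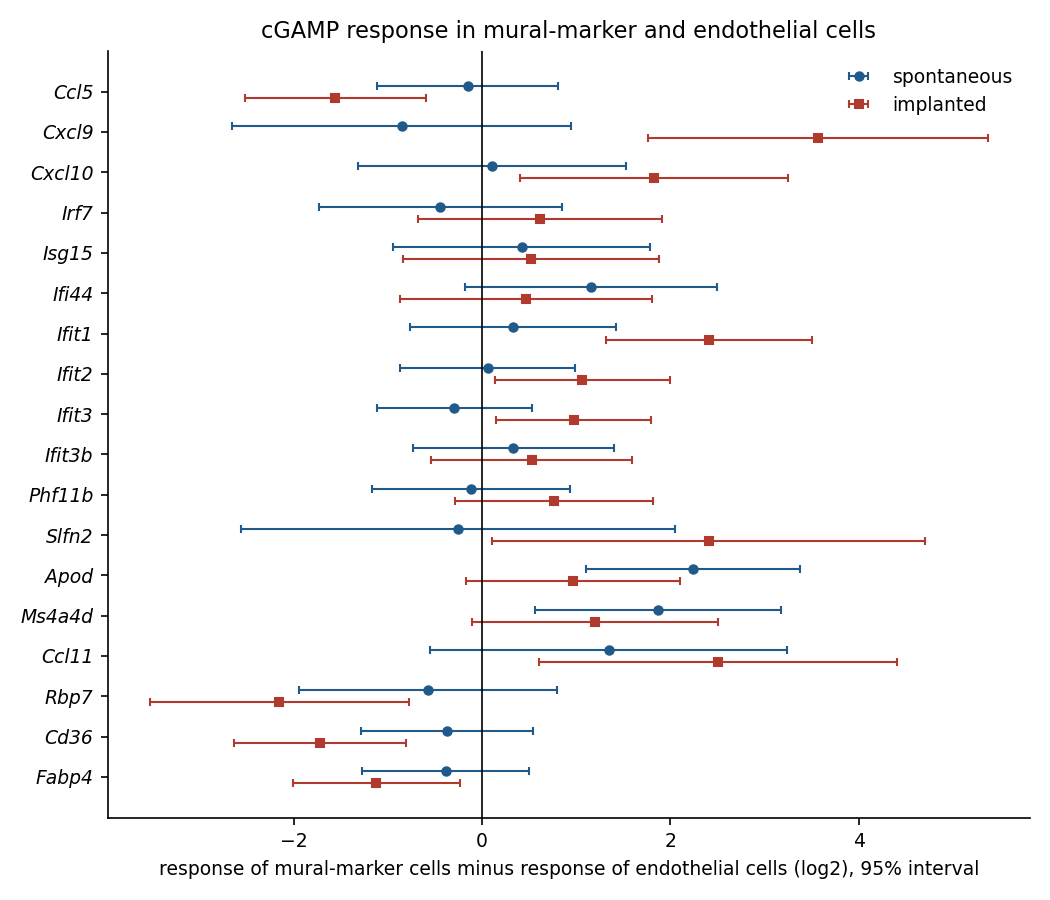
Response of mural-marker cells minus response of reference endothelial cells (log2) for 18 genes in spontaneous and implanted tumours, with 95% intervals from limma. No gene was called. Before adjustment the intervals of Apod and Ms4a4d in spontaneous tumours lie above 0, as do those of Cxcl9, Cxcl10, Ifit1, Ifit2, Ifit3, Slfn2 and Ccl11 in implanted tumours, while those of Ccl5, Rbp7, Cd36 and Fabp4 in implanted tumours lie below 0.

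The 2 tumour models were compared under each treatment. After PBS 1 gene of 7660 was called (0.0131%, Iigp1), higher in implanted tumours at 899 and 693 CPM against 56.7 and 87.4 CPM, a log2 difference of 3.31 ± 0.34 (SE), adjusted p = 0.0343. This call was lost in 7 of 11 other settings, among them summed UMIs (adjusted p = 0.0969), weights (0.111), the replicate block (0.0683) and a fit of only the libraries compared (0.536), and the count ran from 0 to 13 when 1 library was left out. Reference endothelial cells held 1171 and 606 CPM and 110.3 and 106 CPM of it in the same libraries. After cGAMP 0 genes were called (450 at an unadjusted p under 0.05), but 541 were called when libraries were weighted by their number of mural-marker cells and 151 when the fit held only those 4 libraries. The difference between the responses of the 2 models gave 0 called genes (266 at an unadjusted p under 0.05). The lowest p there was that of Iigp1, whose response was 3.50 in spontaneous and 0.93 in implanted tumours (difference -2.57 ± 0.48 (SE), adjusted p = 0.962). The mural-marker cells of the 2 models differed in makeup, with 81 of 258 endothelial-poor in spontaneous and 3 of 104 in implanted tumours, so model and makeup cannot be told apart in these comparisons.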

How the data were processed

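Live CD45-, CD31+ tumour cells had been sorted and run on the 10x Chromium 3′ v3 system, and per the labels' processing notes the authors used Cell Ranger 3.0.0, mm10 and Seurat 3.1.1. The deposited values are on a natural log scale, ln(1 + UMIs of the gene / UMIs of the cell × 10000). The cells had passed the authors' filters on genes and mitochondrial UMIs (at least 501 genes and at most 10.0% mitochondrial UMIs in the files). The later removal of Pecam1-negative cells that the methods describe is not applied in the files, which hold more cells than the study's final counts. UMIs were recovered from the deposited values, and 100% were whole within 0.01. Doublets had no stated treatment, and none were removed here. No count model was used: the deposited values are not counts, although UMIs could be recovered from them. Summed UMIs were fitted with limma as an alternative.

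Members followed the stated rule. Levels were scaled to CPM, averaged over the cells of a library and compared on log2(CPM + 10) with limma 3.58.1 (R 4.3.3) over all 8 libraries, trend on, 20 CPM in at least 2 libraries, Benjamini-Hochberg over all genes. For response minus endothelial response, the difference of log2 levels within a library was fitted. Shares were compared by exact two-sided permutation. The script was tested on simulated data. Named genes were up to 8 called genes per direction with the largest change, at least 50 CPM in a group and libraries that did not overlap, without the rule genes, Epcam, mitochondrial, Gm and Rik genes. The members and gene lists were chosen with earlier results of these data known. Alternatives were other pseudocounts, filters, scaling, summed UMIs, weights, marker minimums, endothelial content, a replicate block, fewer groups and leaving out each library. Intervals on shares cover counting error only. Promoters came from RefSeq (GRCm38.p6), and 34 of 40 symbols matched.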

Additional observations from a re-analysis of the deposited data

Results flagged for a closer look

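The share of endothelial-poor mural-marker cells moved in opposite directions in the 2 tumour models: cGAMP minus PBS was 1.995 percentage points in spontaneous tumours (1.75% ± 2.35 after PBS and 3.75% ± 0.232 after cGAMP, SD, n = 2) and -0.13 in implanted tumours (0.13% ± 0.0545 and 0%). All 4 implanted values rest on 3 cells, 1 and 2 after PBS and 0 and 0 after cGAMP, and the difference between the models was not tested. Over both models the exact two-sided permutation test of the endothelial-poor share gave p = 0.389 (n = 4 libraries per treatment).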

How the results depend on the processing

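The number of genes called depended on the processing. In spontaneous tumours 55 became 15 with no filter on low values, 129 with libraries weighted by their members, 12 in endothelial-poor cells, 125 in cells with no Pecam1 or Cdh5 UMI, where spontaneous PBS replicate 1 had no cell and the spread came from the 2 cGAMP libraries alone, and 8 with only the libraries compared. It ran from 1 to 73 over the fits that left out 1 library. In implanted tumours 79 became 28 with a pseudocount of 1 CPM, 3 with no filter, 166 with summed UMIs, 34 with weights and 15 with only the libraries compared, and ran from 1 to 425 without 1 library. The comparison of models after PBS, 1 gene, gave 0 under a pseudocount of 50 CPM, no filter, summed UMIs, weights, the replicate block, only the libraries compared and endothelial-rich cells alone, and 0 to 13 without 1 library. After cGAMP, 0 became 541 with weights and 151 with only the libraries compared, and 0 to 2 without 1 library. The difference from endothelial cells in implanted tumours gave 1 with a pseudocount of 1 CPM and 0 to 74 without 1 library, and that in spontaneous tumours and the difference of responses gave 0 throughout. The cause of these moves was not tested. The share of members, cGAMP minus PBS, was 9.52 points in spontaneous tumours (7.08 to 12.0 without 1 library) and 2.38 in implanted tumours (2.08 to 2.68), and reversed to -0.13 in implanted tumours for endothelial-poor cells. For 32 gene values, 443 alternative fits kept the side of the threshold, 184 lost it and 0 changed sign.

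The replicate numbers name libraries, and no pairing was assumed in the main fit. The deviations of same-numbered libraries correlated at -0.0384 in spontaneous and 0.0506 in implanted tumours over 7660 genes. Some libraries rest on few mural-marker cells, so these values cannot exclude a pairing. With a replicate block 56 and 59 genes were called. Endothelial-rich cells alone, added after seeing the data, gave 70 and 89. Implanted cGAMP libraries had no endothelial-poor cells, so no implanted value could be given for them. Thinning to 2000 UMIs lowered the share from 3.01% to 1.18% and from 3.52% to 0.686% in implanted cGAMP replicates 1 and 2.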
